A study of Mus musculus with 23 samples.

Results

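The 10 genes described here are linked to regulatory T cells, though other cells carry several of them too. All 10 were followed through the 6 groups of a mouse colon RNA-seq study. Foxp3 and Ikzf2 encode transcription factors, and Il2ra and Il2rb encode interleukin-2 receptor chains. Ctla4, Icos and Tigit encode costimulatory and inhibitory receptors, and Tnfrsf4, Tnfrsf8 and Tnfrsf18 belong to the tumor necrosis factor receptor family. The 10 genes were chosen by symbol, and all were found among the 55449 genes of the deposited table. Bulk RNA was sequenced from the colon of mice colonized with Bacteroides fragilis 638R that had low (BSHlow) or high (BSHhigh) activity of bile salt hydrolase, the bacterial enzyme that removes the amino acid from conjugated bile acids. The comparisons ask how the strain, the tumor and the time on diet and colonization relate to gene expression in the colon.

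All mice were male C57BL/6 of the genotype Cdx2Apcf/w, in which a Cre recombinase driven by the Cdx2 promoter deletes 1 floxed copy of the tumor suppressor Apc in colon epithelium and the other copy is wild type. They were 6 to 8 weeks old at the start, were given antibiotics before colonization and ate a high-fat diet, given as 60% in the labels. The labels call the BSHlow strain bsh-, and the text of the series describes it as wild type, while the study's methods describe it as carrying an empty vector. The BSHhigh strain, bsh+ in the labels, carried a bsh gene from another Bacteroides fragilis strain. The labels give 2 colonizations per week, and the methods give a gavage every 3 days. Normal colon was taken after 2 weeks (4 BSHlow and 4 BSHhigh libraries), and non-tumor colon (4 and 4) and colon tumors (4 BSHlow and 3 BSHhigh) were taken after 12 weeks. No group lacked the strain, the diet or the Apc deletion, so none is an untreated control.

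The header of the deposited table repeats the names of BSHlow tumors over 3 columns. These 3 libraries are treated here as the BSHhigh tumors and called a, b and c, because a table published with the study lists the same values under its BSHhigh tumor heading. Every value given for BSHhigh tumors rests on that reading, and which mouse each of the 3 columns belongs to is not known. The 23 libraries held 12401388 to 17903008 expected counts, with a median of 15874872. Levels are given as counts per 1000000 counts (CPM) on a single scale over all 23 libraries. Nothing in the labels says which mouse a library came from, so p-values measure the spread between these libraries. In tumors all 7 genes of a list of Wnt targets raised by loss of Apc were higher than in non-tumor colon in both strains, with sums of 1546 to 2089 CPM in BSHlow tumors, 1121 to 1737 CPM in BSHhigh tumors and 101 to 144 CPM in non-tumor colon.

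Regulatory T cells restrain other immune cells and are abundant in the colon wall, where they help keep the response to gut bacteria in check. Their identity depends on the transcription factor Foxp3, and they take up interleukin-2 through a receptor whose alpha chain they carry at high levels. Activated regulatory T cells also carry costimulatory, inhibitory and tumor necrosis factor receptors, most of which are shared with other activated T cells.

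The 10 genes were higher in the BSHhigh than in the BSHlow tumors in every pair of libraries, but none of the 10 passed the test across all genes. All 10 had all BSHhigh tumors above all BSHlow tumors, a separation that 7.93% of the 15325 genes tested showed. Fold changes ran from 1.72 for Ikzf2 and Tnfrsf18 to 5.89 for Il2ra. edgeR's quasi-likelihood test with Benjamini-Hochberg adjustment called 0 of the 10 higher and 0 lower (adjusted p under 0.05 and a log2 fold change beyond 1 in size), against 0.463% and 0.0131% of all genes tested. All 10 had an unadjusted p under 0.05. At that p and a log2 fold change beyond 1 in size, 723 genes were higher and 118 lower in the whole table. Ikzf2 and Tnfrsf18, at 0.78 each, fall outside that limit. DESeq2 on the same counts called 8 of the 10 higher, all but Ikzf2 and Tnfrsf18, against 3.19% of all genes, and limma-voom called 0. Il2ra, Il2rb and Tnfrsf8 were called in edgeR without a filter on low counts, and again when all 15 libraries of 12 weeks were fitted together. In the whole table the first of these fits called 308 of 25266 genes higher and the second 500 of 16455. Tnfrsf8 alone was called once BSHhigh tumor c was left out. The number of genes called in the whole table was itself unsteady, at 71 higher with all 7 tumors and at 234 without BSHhigh tumor c, 6 without a, 1 without b, 3 without BSHlow tumor 2, and 0 without BSHlow tumor 1, 3 or 4. Several of the 10 genes are markers that the study picked on these same tumor libraries, so their direction in tumors is not independent evidence. The pan T cell genes differed by a similar amount, with a median log2 fold change of 2.12 against 2.07 for the 10 genes. In bulk tissue a larger share of regulatory T cells, a larger share of other T cells and more RNA per cell cannot be told apart.

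**Figure D1:**
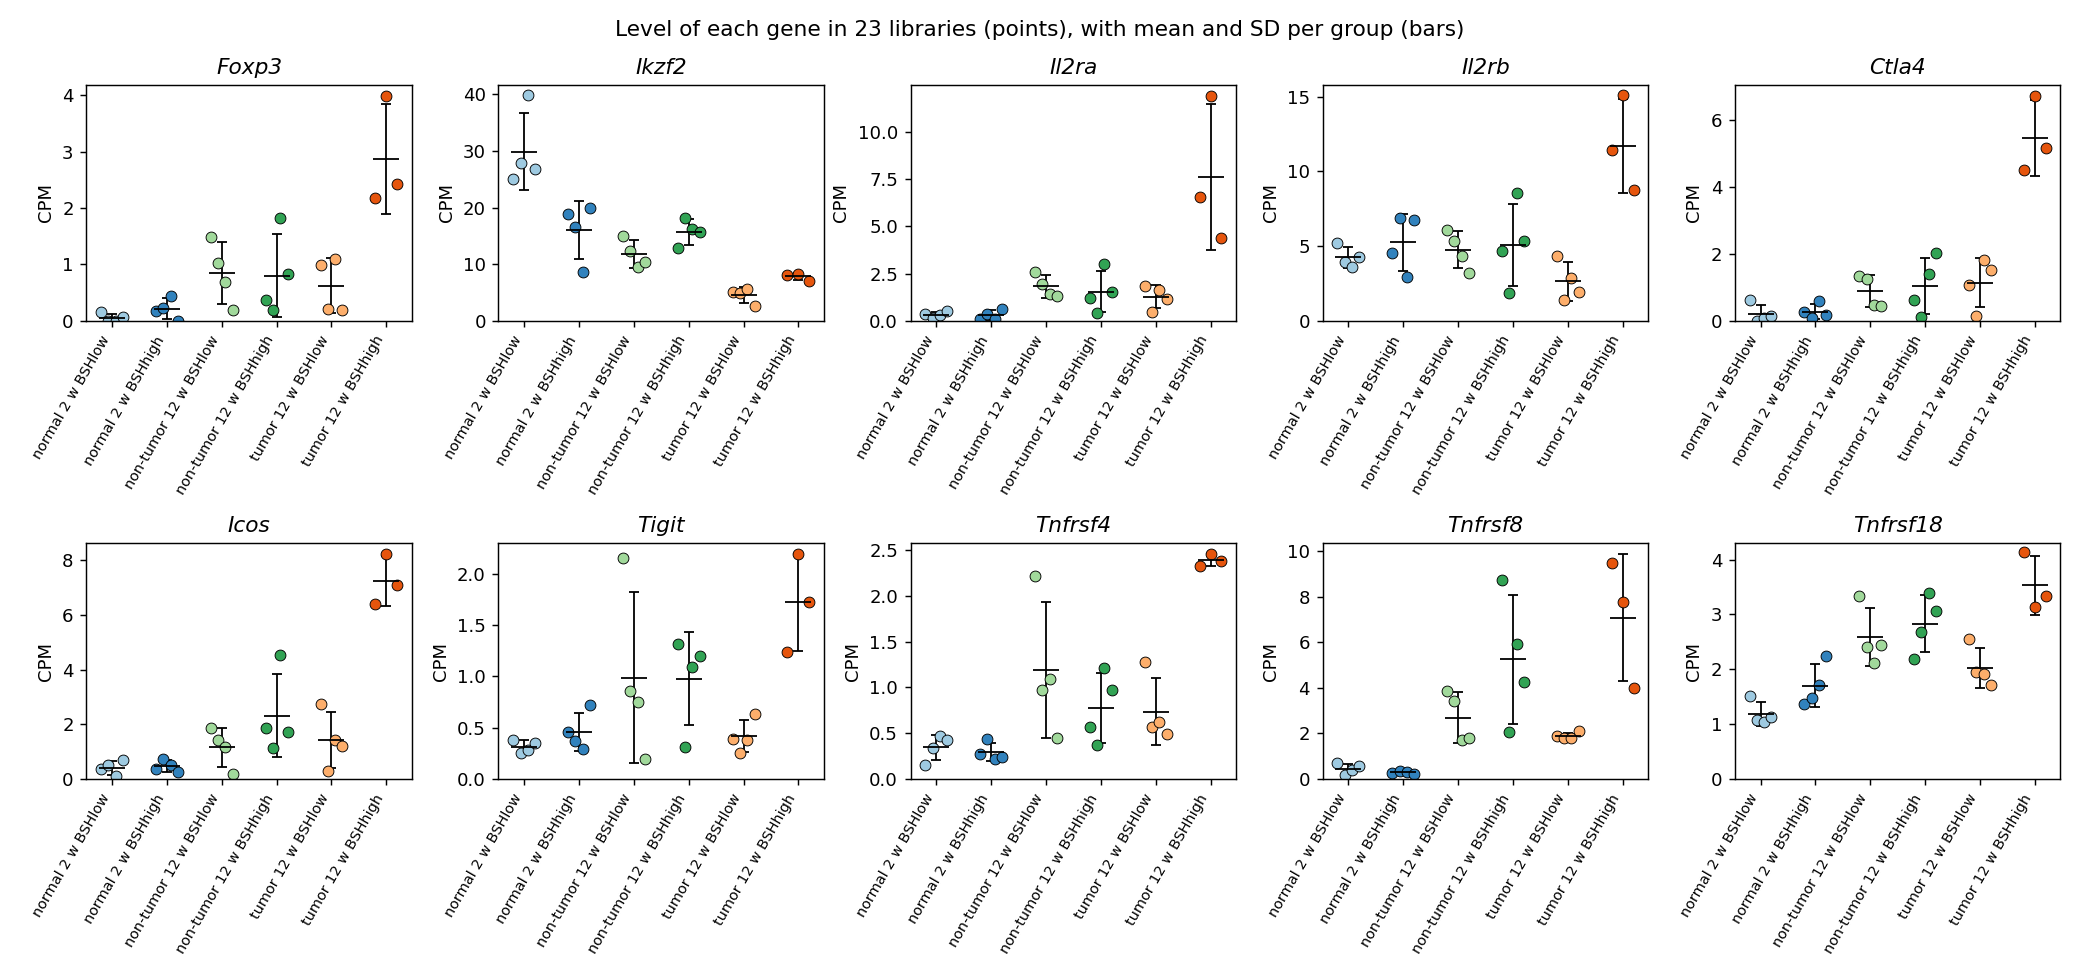
CPM of each of the 10 genes (vertical axis, linear) in the 23 libraries (points) of the 6 groups (horizontal axis), with the mean and SD of each group as bars. The 3 BSHhigh tumors lie above the 4 BSHlow tumors in every panel, while Ikzf2 is highest in 2-week BSHlow colon, at 25.0 to 39.8 CPM.

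Foxp3 encodes the transcription factor that defines regulatory T cells. It stood at 0.982, 0.205, 1.10 and 0.196 CPM in the 4 BSHlow tumors and at 2.17, 3.98 and 2.43 CPM in the 3 BSHhigh tumors. In non-tumor colon the levels were 1.48, 1.03, 0.682 and 0.194 CPM in BSHlow mice and 0.375, 0.187, 1.82 and 0.823 CPM in BSHhigh mice. At 2 weeks they were 0.152, 0, 0 and 0.0703 CPM in BSHlow mice and 0.182, 0.221, 0.446 and 0 CPM in BSHhigh mice. The BSHhigh tumors were thus above every other library, the BSHlow tumors and both non-tumor groups overlapped widely, and the 2-week libraries were low, with 3 of the 8 at 0 counts, though the highest of them overlapped the lowest 12-week libraries. In falling order the group means with SD were 2.86 ± 0.975 CPM in BSHhigh tumors (n = 3), 0.847 ± 0.545 in BSHlow and 0.801 ± 0.729 in BSHhigh non-tumor colon, 0.620 ± 0.487 in BSHlow tumors, 0.212 ± 0.183 in BSHhigh and 0.0555 ± 0.0722 in BSHlow 2-week colon (n = 4 each). Each group overlapped the next in that order, except that BSHhigh tumors lay clear of the others. The BSHhigh and BSHlow tumors differed by 2.18 on the log2 scale (SE 0.63, edgeR adjusted p = 0.19), with an adjusted p from 0.0367 to 0.425 over the alternative settings.

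Foxp3 shares exon bases with other genes. The gene (ENSMUSG00000039521.13, chrX:7573644-7595245 in mm10, plus strand, protein coding) shares 590 exon bases with Ccdc22, 266 with Ppp1r3f and 373 with Gm36995, all on the other strand, and 853 with the non-coding Flicr on its own strand. The libraries were made with a stranded kit, but the strand setting of the counting is not given in the sources used here. RSEM divides a read that fits several genes, and the deposited counts of Foxp3 were whole in all 23 libraries, while those of Ccdc22 and Ppp1r3f were not whole in 17, so no divided read shows in the Foxp3 counts. Between the strains in tumors Ccdc22, whose product acts in endosomal protein sorting, differed by -0.10 on the log2 scale (SE 0.13, edgeR adjusted p = 0.809). Ppp1r3f, a regulatory subunit of protein phosphatase 1, differed there by 0.21 (SE 0.42, adjusted p = 0.874) and was not called. Ppp1r3f was called higher in 2 comparisons in which Foxp3 also was, in BSHhigh tumors against non-tumor colon by 1.59 (SE 0.47, adjusted p = 0.00991), from a mean of 0.569 to 1.74 CPM, and from 2 to 12 weeks in BSHlow mice by 1.59 (SE 0.49, adjusted p = 0.0141), from 0.362 to 1.08 CPM. Whether shared bases link the counts of the 2 genes was not tested beyond these values.

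The promoters of Foxp3, Il2ra, Tnfrsf4 and Tnfrsf8 are shown where each gene is described, because Foxp3 defines the cell type and Il2ra, Tnfrsf4 and Tnfrsf8 are the genes with a promoter in the table that were called higher at 12 weeks than at 2 weeks in both strains. Each covers 250 bases before to 50 after the start of the gene, 5′ to 3′ on the gene's strand, from RefSeq on GRCm38.p6, which held 7 of the 10 genes. Icos, Ikzf2 and Il2rb are the others. Capitals mark GGAAA or TTTCC, the core bound by NFAT, a factor switched on by T cell receptor signaling, and TGANTCA, the AP-1 motif, which is its own complement. Both strands were searched, and no 2 marked matches overlap. GGAAA or TTTCC was present in 61.3% and TGANTCA in 7.81% of the 32851 promoters of the same length. The motifs and the genes shown were chosen after their values were seen, and a match is a description only.

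The window of the first of 2 Foxp3 starts is chrX:7579426-7579725 on the plus strand and overlaps exons of Foxp3 and Flicr.
Foxp3 promoter: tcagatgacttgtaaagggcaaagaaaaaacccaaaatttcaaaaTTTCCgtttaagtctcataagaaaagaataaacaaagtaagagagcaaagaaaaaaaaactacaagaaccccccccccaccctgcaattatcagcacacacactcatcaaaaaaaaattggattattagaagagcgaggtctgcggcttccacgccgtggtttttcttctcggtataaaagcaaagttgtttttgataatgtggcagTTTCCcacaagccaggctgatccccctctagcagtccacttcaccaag
It held 2 matches of GGAAA or TTTCC, none of TGANTCA and 1 of the TATA box letters TATAAA or TTTATA, which 13.6% of all promoters held.

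Ikzf2 encodes Helios, a zinc finger factor of the Ikaros family found in many regulatory T cells and in other cells. Its levels were 5.06, 4.93, 5.58 and 2.54 CPM in BSHlow tumors and 8.02, 8.35 and 7.11 CPM in BSHhigh tumors. In non-tumor colon they were 15, 12.4, 9.55 and 10.3 CPM in BSHlow mice and 12.8, 18.2, 16.3 and 15.6 CPM in BSHhigh mice. At 2 weeks they were 25.0, 27.9, 39.8 and 26.9 CPM in BSHlow mice and 18.8, 16.6, 8.69 and 20 CPM in BSHhigh mice. Unlike Foxp3, Ikzf2 was highest in 2-week BSHlow colon and lowest in BSHlow tumors, with no overlap between tumors and non-tumor colon. Over the 23 libraries its log2 CPM had a Pearson correlation of -0.48 with that of Foxp3, and of 0.03 once each group's mean was subtracted. The sum of 11 colon epithelium genes was also highest at 2 weeks and lowest in tumors, with means of 27839 and 24916 CPM in BSHlow and BSHhigh 2-week colon, 10316 and 9581 in non-tumor colon, and 4345 and 5083 in tumors. In BSHlow mice most of its drop over time was 1 gene, Car1, with a mean of 14490 CPM at 2 weeks and 404 CPM at 12 weeks. The list had a median log2 fold change over time of -0.28 in BSHlow mice, with 7 of 11 genes negative, and of -0.66 in BSHhigh mice, with 10 of 11. All 11 were negative in tumors against non-tumor colon in both strains. Its part in the Ikzf2 levels was not tested. Ikzf2 shares 144 exon bases with Gm29114 on the other strand, and its deposited counts were whole in all 23 libraries.

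Il2ra, 1 of the 2 interleukin-2 receptor chains followed here, encodes CD25, the alpha chain that gives the receptor its high affinity. It stood at 1.82, 0.462, 1.62 and 1.17 CPM in BSHlow tumors and at 6.57, 11.9 and 4.39 CPM in BSHhigh tumors. Levels in non-tumor colon were 2.59, 1.95, 1.43 and 1.29 CPM in BSHlow mice and 1.19, 0.436, 3.03 and 1.5 CPM in BSHhigh mice, and at 2 weeks 0.379, 0.167, 0.284 and 0.492 CPM in BSHlow mice and 0.0908, 0.368, 0.0743 and 0.641 CPM in BSHhigh mice. Every BSHhigh tumor was above all other libraries, and tumor b, the highest, held 266 of the 485 counts in that group. Il2ra differed between BSHhigh and BSHlow tumors by 2.56 on the log2 scale (SE 0.50, edgeR adjusted p = 0.0643), with an adjusted p from 7.1e-05 to 0.198 over the settings.

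The Il2ra promoter window is chr2:11642542-11642841 on the plus strand and overlaps an exon of Il2ra.
Il2ra promoter: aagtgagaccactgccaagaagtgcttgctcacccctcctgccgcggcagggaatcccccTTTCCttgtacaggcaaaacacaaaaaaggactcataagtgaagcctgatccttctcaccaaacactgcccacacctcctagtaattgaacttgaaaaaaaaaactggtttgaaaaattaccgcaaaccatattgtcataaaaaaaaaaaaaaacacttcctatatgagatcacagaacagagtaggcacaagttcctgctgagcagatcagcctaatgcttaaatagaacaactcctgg
It held 1 match of GGAAA or TTTCC and none of TGANTCA.

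Il2rb encodes the beta chain, which signals for both interleukin-2 and interleukin-15 and is also carried by cytotoxic and natural killer cells. Its levels were 4.37, 1.39, 2.86 and 1.91 CPM in BSHlow tumors and 11.4, 15.1 and 8.73 CPM in BSHhigh tumors. In non-tumor colon they were 6.08, 5.33, 4.36 and 3.23 CPM in BSHlow mice and 4.69, 1.87, 8.55 and 5.31 CPM in BSHhigh mice, and at 2 weeks 5.23, 3.92, 3.60 and 4.29 CPM in BSHlow mice and 4.54, 6.85, 2.90 and 6.73 CPM in BSHhigh mice. The 3 BSHhigh tumors again stood above all other libraries, but unlike Foxp3 and Il2ra the gene was as high in 2-week as in non-tumor colon. Il2rb differed between the tumor groups by 2.13 on the log2 scale (SE 0.40, edgeR adjusted p = 0.0585, 2.7e-05 to 0.193 over the settings).

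Ctla4 encodes an inhibitory receptor for the ligands Cd80 and Cd86. Its levels were 1.08, 0.154, 1.81 and 1.52 CPM in BSHlow tumors and 4.50, 6.70 and 5.15 CPM in BSHhigh tumors. In non-tumor colon it ran from 0.452 to 1.33 CPM in BSHlow mice and from 0.125 to 2.02 CPM in BSHhigh mice, and at 2 weeks from 0 to 0.607 and from 0.0737 to 0.594 CPM. BSHlow tumors overlapped non-tumor colon, and only the BSHhigh tumors stood apart. The tumor groups differed by 2.23 on the log2 scale (SE 0.60, edgeR adjusted p = 0.153, 0.00926 to 0.38 over the settings).

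Icos encodes a costimulatory receptor whose ligand is Icosl. It stood at 2.75, 0.308, 1.43 and 1.22 CPM in BSHlow tumors and at 6.41, 8.22 and 7.11 CPM in BSHhigh tumors. In non-tumor colon the levels were 1.85, 1.43, 1.16 and 0.194 CPM in BSHlow mice and 1.88, 1.12, 4.55 and 1.72 CPM in BSHhigh mice, and at 2 weeks 0.0948 to 0.703 and 0.240 to 0.737 CPM. BSHhigh tumors were above every other library, with non-tumor BSHhigh library 3 the nearest. Icos differed between the tumor groups by 2.32 on the log2 scale (SE 0.56, edgeR adjusted p = 0.114, 0.00206 to 0.31 over the settings).

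Tigit encodes an inhibitory receptor that binds Pvr and Nectin2. It ran from 0.257 to 0.635 CPM in BSHlow tumors and from 1.24 to 2.19 CPM in BSHhigh tumors, but the BSHhigh tumors overlapped non-tumor colon, which reached 2.15 CPM in BSHlow library 1. The tumor groups differed by 2.01 on the log2 scale (SE 0.40, edgeR adjusted p = 0.0713, 0.00638 to 0.221 over the settings).

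Tnfrsf4 encodes OX40, a costimulatory receptor of activated T cells. Its levels were 1.28, 0.564, 0.620 and 0.489 CPM in BSHlow tumors and 2.33, 2.46 and 2.38 CPM in BSHhigh tumors. In non-tumor colon they were 2.22, 0.974, 1.09 and 0.452 CPM in BSHlow mice and 0.563, 0.374, 1.21 and 0.973 CPM in BSHhigh mice, and at 2 weeks 0.152, 0.334, 0.474 and 0.422 CPM in BSHlow mice and 0.273, 0.442, 0.223 and 0.240 CPM in BSHhigh mice. The BSHhigh tumors lay within a narrow range just above the highest non-tumor library, and all 12-week BSHlow tumors were above all 2-week libraries. The tumor groups differed by 1.67 on the log2 scale (SE 0.39, edgeR adjusted p = 0.106, 0.0113 to 0.334 over the settings).

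The promoter window of Tnfrsf4 is chr4:156013445-156013744 on the plus strand and overlaps an exon of the neighbouring gene Sdf4.
Tnfrsf4 promoter: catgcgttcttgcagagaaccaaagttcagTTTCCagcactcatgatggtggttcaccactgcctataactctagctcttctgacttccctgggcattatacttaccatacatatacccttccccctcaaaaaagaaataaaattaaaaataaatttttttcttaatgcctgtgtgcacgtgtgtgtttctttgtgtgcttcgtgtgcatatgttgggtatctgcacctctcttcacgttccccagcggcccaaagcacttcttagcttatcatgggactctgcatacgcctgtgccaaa
It held 1 match of GGAAA or TTTCC and none of TGANTCA.

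Tnfrsf8 encodes CD30, a receptor of activated lymphocytes. It stood at 1.87, 1.80, 1.81 and 2.10 CPM in BSHlow tumors and at 9.47, 7.77 and 4.01 CPM in BSHhigh tumors. In non-tumor colon the levels were 3.86, 3.44, 1.70 and 1.81 CPM in BSHlow mice and 8.75, 2.05, 5.94 and 4.27 CPM in BSHhigh mice, and at 2 weeks 0.683, 0.167, 0.379 and 0.563 CPM in BSHlow mice and 0.273, 0.368, 0.297 and 0.240 CPM in BSHhigh mice. BSHhigh tumors overlapped BSHhigh non-tumor colon, and every 12-week library was above every 2-week library. The tumor groups differed by 1.88 on the log2 scale (SE 0.31, edgeR adjusted p = 0.0511, the smallest of the 10, and 1.9e-05 to 0.162 over the settings).

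The Tnfrsf8 promoter window is chr4:145315115-145315414 on the minus strand and overlaps an exon of Tnfrsf8.
Tnfrsf8 promoter: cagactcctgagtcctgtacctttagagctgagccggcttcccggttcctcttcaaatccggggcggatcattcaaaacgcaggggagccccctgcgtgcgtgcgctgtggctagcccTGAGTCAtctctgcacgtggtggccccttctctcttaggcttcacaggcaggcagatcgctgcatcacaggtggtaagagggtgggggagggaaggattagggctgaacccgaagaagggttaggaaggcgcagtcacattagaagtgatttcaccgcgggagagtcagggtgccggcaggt
It held 1 match of TGANTCA and none of GGAAA or TTTCC.

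Tnfrsf18 encodes GITR, a costimulatory receptor. It ran from 1.71 to 2.55 CPM in BSHlow tumors, from 3.13 to 4.14 CPM in BSHhigh tumors, from 2.11 to 3.39 CPM in non-tumor colon and from 1.04 to 2.24 CPM at 2 weeks. BSHhigh tumors and non-tumor colon overlapped, and the tumor groups differed by 0.78 on the log2 scale (SE 0.26, edgeR adjusted p = 0.25). Tnfrsf18 shares 414 exon bases with Gm16008 on the other strand, and its deposited counts were whole in all 23 libraries.

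Per kilobase of exon, the level of Il2rb led in BSHhigh tumors at 2.74 CPM per kb, followed by Ctla4 at 2.34, Tnfrsf18 at 2.32, Icos at 2.11, Tnfrsf8 at 2.05, Tigit at 1.87, Tnfrsf4 at 1.75 and Il2ra at 1.33 CPM per kb. Ikzf2 and Foxp3 were lowest there, at 0.674 and 0.625 CPM per kb. At 2 weeks in BSHlow mice the order was different, with Ikzf2 leading at 2.57 CPM per kb, then Il2rb at 0.994 and Tnfrsf18 at 0.782, and Foxp3 last at 0.0121 CPM per kb.

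Non-tumor colon showed no such separation between the strains. Of the 10 genes, all tested, edgeR called 0 higher (0% of 14934 genes) and 0 lower (0%), and limma-voom also called 0 of them. DESeq2 called 0 of the 6 it gave an adjusted p, which leaves out Foxp3, Ctla4, Tigit and Tnfrsf4. At an unadjusted p under 0.05 and a log2 fold change beyond 1 in size, edgeR had 145 genes higher and 68 lower. DESeq2 called 45 higher and 14 lower over the whole table. In edgeR Ikzf2 alone of the 10 had an unadjusted p under 0.05 without the limit on fold change. Its log2 fold change was 0.41 (SE 0.18, edgeR adjusted p = 0.533). DESeq2 had Tnfrsf8 under 0.05 as well, at an unadjusted p of 0.0458. The largest differences in size were 1.0 for Icos (SE 0.62, adjusted p = 0.678) and 0.95 for Tnfrsf8 (SE 0.45, adjusted p = 0.585). Foxp3 stood at -0.07 (SE 0.74, adjusted p = 0.986), a value that changed sign with the library left out: it was 0.33 without BSHlow library 1, 0.05 without BSHlow library 2, 0.16 without BSHhigh library 1 and 0.25 without BSHhigh library 2.

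At 2 weeks most of the genes were too low to test. Of the 10, 3 genes, Ikzf2, Il2rb and Tnfrsf18, passed the low-count filter, and edgeR called 0 of them higher (0.00727% of 13753 genes) and 0 lower (0%). DESeq2 and limma-voom called 0 of them as well. At an unadjusted p under 0.05 and a log2 fold change beyond 1 in size, edgeR had 141 genes higher and 36 lower. DESeq2 called 19 higher and 8 lower over the whole table. Ikzf2 had all BSHhigh libraries below all BSHlow libraries, as did 1.55% of the genes tested, with a log2 fold change of -0.91 (SE 0.25, edgeR adjusted p = 0.607). The other 7 genes had group sums of 3 to 24 counts over 4 libraries. Without the filter all 10 were tested and 0 were called.

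Whether the strains differed more in tumors than in non-tumor colon was tested in a fit of all 15 libraries of 12 weeks. edgeR called 0 of the 10 genes higher (0.972% of 16455 genes) and 0 lower (0.00608%). DESeq2 called 2 of the 10, against 378 genes higher and 8 lower of all 16455. These 2 were Il2ra at 2.81 on the log2 scale (SE 0.78, DESeq2 adjusted p = 0.0174, 0.0174 to 0.288 over the settings) and Il2rb at 2.04 (SE 0.62, adjusted p = 0.041, 0.041 to 0.375 over the settings). With limma-voom 0 were called. Of the 10, 5 genes, Foxp3, Il2ra, Il2rb, Tigit and Tnfrsf4, had an unadjusted p under 0.05 in edgeR, all with a difference beyond 1 in size. At that p and with that limit, 804 genes were higher and 97 lower in the whole table. The difference of differences was positive for all 10, with a median of 2.03 against 0.03 for all genes tested, and for Foxp3 it was 2.26 (SE 1.05, edgeR adjusted p = 0.511). Several other lists leaned the same way. Of the genes tested it was positive for 15 of 15 pan T cell genes (median 1.69), 7 of 7 cytotoxic and natural killer genes (1.63), 8 of 8 B cell genes (1.85), 4 of 4 helper T cell genes (1.07) and 11 of 11 colon epithelium genes (1.14), and edgeR called 3 of the last, Aqp8, Slc26a3 and Krt20. Mast cell genes went the other way (2 of 6 positive, median -0.78), and macrophage genes and Wnt targets had medians of 0.14 each. Among the tumor libraries alone 3 of the B cell genes and 4 of the cytotoxic and natural killer genes passed the filter. Among the non-tumor libraries alone 3 of the helper T cell genes did. The numbers positive in these lists are therefore no support for a shift of the lists. What part the lists of this paragraph had in the values of the 10 genes was not tested.

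**Figure D2:**
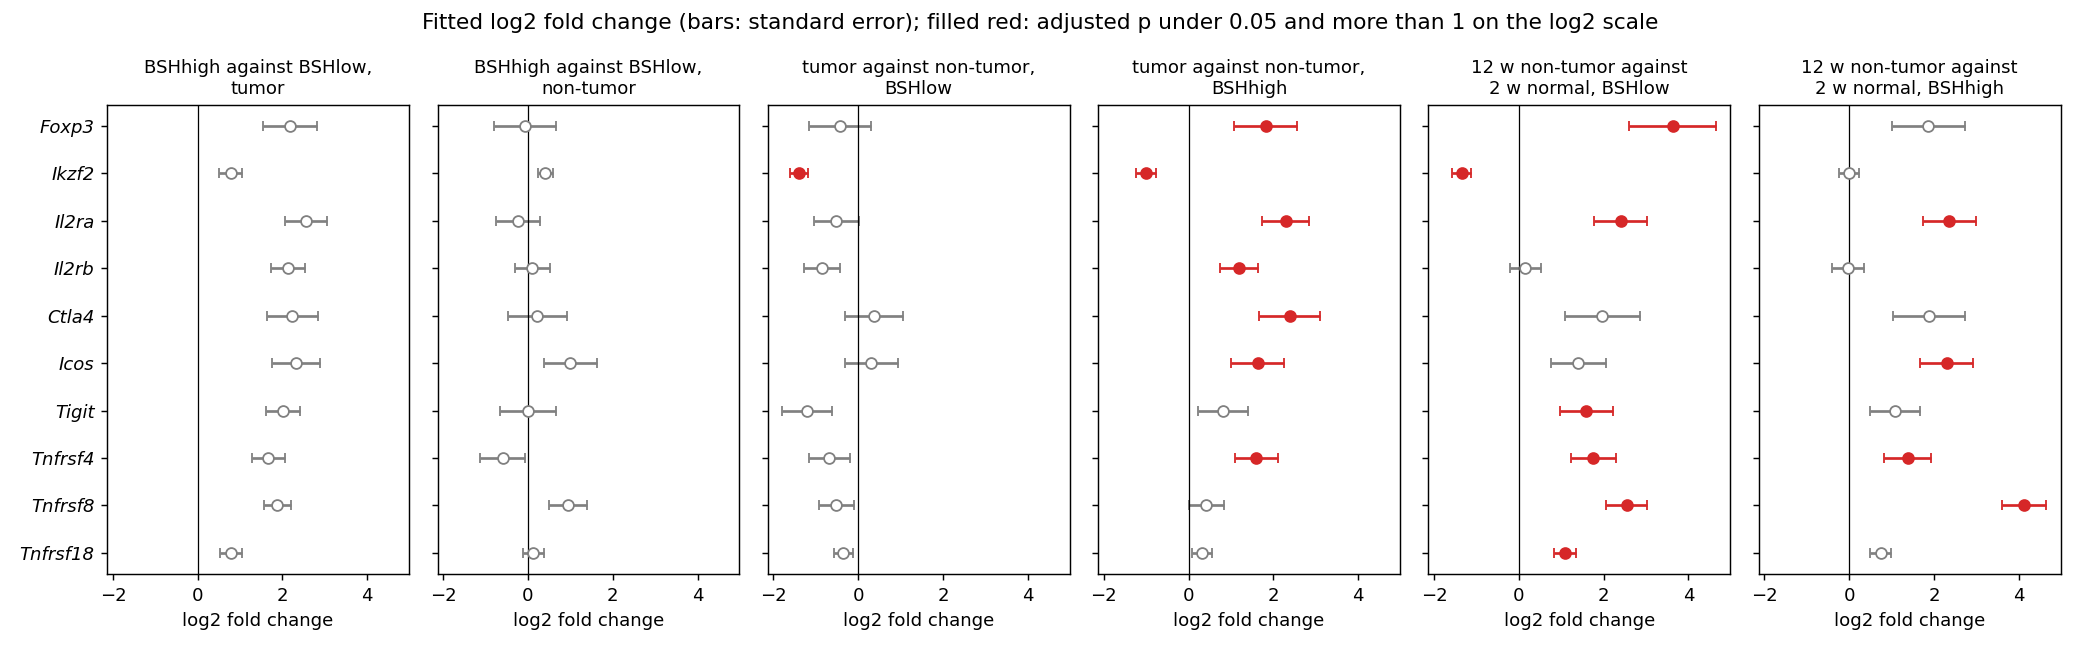
Fitted log2 fold change (horizontal axis) of each of the 10 genes in 6 comparisons (panels), with bars for the standard error and filled red points for genes called by edgeR. No gene is called between the strains in tumors or in non-tumor colon, and 6 are called higher in BSHhigh tumors than in BSHhigh non-tumor colon.

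Tumors and non-tumor colon were then compared within each strain. In BSHhigh mice 6 of the 10 genes rose in tumors (14.6% of 16455 genes tested rose) and 1 fell (14.8%). Ctla4 was higher by 2.39 on the log2 scale (SE 0.72, edgeR adjusted p = 0.0113), Il2ra by 2.29 (SE 0.55, adjusted p = 0.0029) and Foxp3 by 1.82 (SE 0.74, adjusted p = 0.0499, 0.0124 to 0.16 over the settings). Icos rose by 1.63 (SE 0.63, adjusted p = 0.0401, 0.00736 to 0.0991), Tnfrsf4 by 1.60 (SE 0.50, adjusted p = 0.0142) and Il2rb by 1.19 (SE 0.44, adjusted p = 0.0315, 0.00721 to 0.123). Ikzf2 fell by 1.01 on the log2 scale (SE 0.24, adjusted p = 0.0023). All 3 tumors lay above all 4 non-tumor libraries for 6 genes and below them for Ikzf2. The share of all genes tested that separated in this way was not counted, so these numbers are a description only. DESeq2 and limma-voom called 6 higher and 1 lower as well. These calls leaned on single libraries: of the 7, 3 passed without non-tumor library 2 (Il2ra, Ctla4 and Tnfrsf4), and 4 passed without non-tumor library 1 or 4 or without tumor a or b (Ikzf2 beside those 3) and without tumor c (Il2rb beside those 3). Foxp3 and Icos were called in none of those 6 fits. Without non-tumor library 3 the 6 that rose were called and Ikzf2 was not. Ikzf2 stayed at -1.11 to -0.94 on the log2 scale over the settings, with an adjusted p of 0.0153 or less. Its lost calls thus came from the fold change limit of 1. Foxp3 ran from 1.49 to 2.64 and Icos from 1.40 to 2.20 over the settings, and their lost calls came with a higher adjusted p. When at least 10 counts were asked of every library, 4 of the 10 were tested and Il2rb and Ikzf2 were the 2 called.

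In BSHlow mice 0 of the 10 genes rose in tumors (16.7% of genes tested) and 1, Ikzf2, fell (19.5%), by 1.40 on the log2 scale (SE 0.22, edgeR adjusted p = 7.3e-05). At an unadjusted p under 0.05 and a log2 fold change beyond 1 in size, edgeR had 2799 genes higher and 3271 lower. Of the 10, Ikzf2 alone was among them. DESeq2 and limma-voom also called 0 higher and 1 lower. Foxp3 stood at -0.44 (SE 0.73, adjusted p = 0.613) and Il2ra at -0.52 (SE 0.53, adjusted p = 0.404). Tigit was called lower as well when BSHlow non-tumor library 4 was left out, and Il2rb when BSHlow tumor 1 was, so that 2 were called in each. The 10 genes had a median log2 fold change of -0.52 in BSHlow mice and 1.40 in BSHhigh mice, against 0.04 for all genes in both. The difference between the strains is the one tested above over 15 libraries, where edgeR called 0 of the 10. These comparisons share their libraries with those between the strains.

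Other cell types differed between tumor and non-tumor colon too. In BSHhigh mice all 15 pan T cell genes were positive in tumors, with a median of 0.91, and 3 were called higher, Zap70, Trac and Cd3g, where 14.6% of all genes were. Their sums were 36.0, 21, 78.0 and 35.2 CPM in non-tumor colon and 96.1, 89.2 and 75.4 CPM in tumors, which overlap. Helper T cell genes (4 of 10 tested) had a median of 1.63 with 3 of 4 called higher (Il17a, Pdcd1 and Havcr2). Il17a held 5 and 10 counts in the BSHlow and BSHhigh non-tumor groups and came in through the tumors, where it is higher. The number called and the median are thus no support for a rise of that list. Of 7 cytotoxic and natural killer genes tested 2 were positive, both called higher (Gzmb and Gzma), and 5 negative, with a median of -0.33. Of that list 3 genes passed the filter among the non-tumor libraries alone and 4 among the tumor libraries alone, so these numbers are no support for a shift of it. In BSHlow mice the pan T cell median was -1.01, with 2 called higher and 2 lower. The B cell list (8 genes, most abundant per kb Cd79a) was called lower in tumors for 8 of 8 genes in BSHlow and 7 of 8 in BSHhigh mice, with sums of 48.0, 76.0, 394 and 86.6 CPM in BSHhigh non-tumor colon against 16.2, 4.38 and 5.87 CPM in BSHhigh tumors. Of these 8, 3 passed the filter among the tumor libraries alone. The others came in through the non-tumor libraries, where they are higher, so the number called is no support for a fall of that list. The smooth muscle list (6 genes, most abundant per kb Tagln) was called lower for 6 of 6 genes in both strains, with sums of 4343, 3373, 3937 and 3286 CPM against 343, 215 and 177 CPM in BSHhigh mice. No gene of these lists was at 0 counts in non-tumor colon or in BSHhigh tumors. Their part in the results for the 10 genes was not tested.

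From 2 weeks to 12 weeks, in normal and non-tumor colon, Il2ra, Tnfrsf4 and Tnfrsf8 rose in both strains and Foxp3 in BSHlow mice. All 10 genes passed the filter here, but 7 of them, all except Ikzf2, Il2rb and Tnfrsf18, did not pass it among the 2-week libraries alone (group sums of 3 to 24 counts). These 7 came in through the 12-week libraries, where they are higher, so the number that rose and the median of the 10 are no support for a rise of the list. In BSHlow mice 6 rose (17.0% of 15533 genes) and 1 fell (8.06%). Tnfrsf8 rose by 2.54 on the log2 scale (SE 0.48, edgeR adjusted p = 0.000501), Il2ra by 2.40 (SE 0.62, adjusted p = 0.00483), Tnfrsf4 by 1.75 (SE 0.53, adjusted p = 0.0128), Tigit by 1.59 (SE 0.62, adjusted p = 0.0436, 0.00819 to 0.228 over the settings) and Tnfrsf18 by 1.09 (SE 0.25, adjusted p = 0.00241). Foxp3 rose from 3 counts over 4 libraries to 51, a ratio of 16.2 per unit of depth with a 95% counting interval of 5.25 to 81.3 (edgeR adjusted p = 0.0087), where the interval covers counting error only. Ikzf2 fell by 1.35 (SE 0.23, adjusted p = 0.000229). Without BSHlow non-tumor library 1 the number called went from 7 to 4, Foxp3, Il2ra, Tnfrsf8 and Ikzf2. Tnfrsf18 ran from 0.94 to 1.23 over the settings with an adjusted p of 0.0265 or less, so it was lost at the fold change limit of 1. Tnfrsf4 ran from 1.26 to 2.01 and Tigit from 0.89 to 1.93. The number called was 2 of 3 tested, Ikzf2 and Tnfrsf18, when at least 10 counts were asked of every library. Tigit kept its call without non-tumor library 4 and lost it without any other single library. Ctla4 was called without 2-week library 1 and Icos without non-tumor library 4.

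In BSHhigh mice 4 of the 10 rose (16.8% of genes tested) and 0 fell (7.56%). Tnfrsf8 rose by 4.12 on the log2 scale (SE 0.51, edgeR adjusted p = 1.4e-05), Il2ra by 2.36 (SE 0.63, adjusted p = 0.00583), Icos by 2.30 (SE 0.63, adjusted p = 0.00689) and Tnfrsf4 by 1.38 (SE 0.55, adjusted p = 0.0463, 0.0272 to 0.149 over the settings). DESeq2 and limma-voom called 3 higher, not Tnfrsf4, and 0 lower. At an unadjusted p under 0.05 in edgeR and a log2 fold change beyond 1 in size, the table held 2751 genes higher and 1210 lower. Foxp3 was higher by 1.87 (SE 0.85, adjusted p = 0.0788), and was called together with Ctla4 when non-tumor library 2 was left out, which brought the count to 6. Ctla4 was also called without 2-week library 3. Tnfrsf4 lost its call without non-tumor library 3 or 4 and without 2-week library 1, 3 or 4. Its log2 fold change ran from 1.07 to 1.64 over the settings. When at least 10 counts were asked of every library 3 of the 10 were tested and 0 called, since that filter removes genes near 0 at 2 weeks. Ikzf2 stood at -0.01 (SE 0.23, adjusted p = 0.966). The fall of Ikzf2 and the rise of Foxp3 passed in BSHlow and not in BSHhigh mice, and that difference between the strains was not tested.

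Much else changed between these tissues, and age, time on diet, time of colonization and the tissue label cannot be told apart in them. Smooth muscle genes summed to 52.6, 174, 49.8 and 45.3 CPM in BSHlow 2-week colon and to 1869, 8473, 3928 and 1513 CPM in BSHlow non-tumor colon, and to 7.09, 149, 206 and 48.7 CPM against 4343, 3373, 3937 and 3286 CPM in BSHhigh mice, with 6 of 6 genes called higher in both strains. Macrophage genes (most abundant per kb C1qa) summed to 28.2, 19.5, 33.5 and 26.5 CPM against 220, 245, 183 and 67.7 CPM in BSHlow mice and to 17.1, 36.3, 52.6 and 16.5 CPM against 197, 205, 172 and 261 CPM in BSHhigh mice, with 7 of 7 called higher in both. The 6 dendritic cell genes (most abundant per kb Itgax) were all called higher in both strains. Of these 6, 1 passed the filter among the 2-week libraries alone. The others came in through the non-tumor libraries, where they are higher, so the number called is no support for a rise of that list. The B cell genes were called higher for 8 of 8 in BSHlow and 5 of 8 in BSHhigh mice, and 7 of the 8 passed the filter among the 2-week libraries alone. Cytotoxic and natural killer genes (10, most abundant per kb Gzma) went the other way, from 39.7, 16.6, 10.5 and 34.3 CPM to 9.05, 6.76, 6.00 and 3.16 CPM in BSHlow mice and from 49.8, 50.9, 25.2 and 84.1 CPM to 5.94, 4.86, 8.73 and 7.78 CPM in BSHhigh mice, with 4 and 5 of the 6 tested called lower. Of the 10 cytotoxic and natural killer genes, 6 passed the filter among the 2-week libraries alone and 3 among the non-tumor libraries alone. The number called is therefore no support for a fall of that list. No gene of these lists was at 0 counts in the 4 groups. Their part in the results for the 10 genes was not tested.

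The pan T cell list (15 genes, most abundant per kb Trbc2, none at 0 counts in any group) had a median log2 fold change from 2 to 12 weeks of -0.08 in BSHlow and -0.88 in BSHhigh mice, while the 10 genes had medians of 1.67 and 1.63 and all genes medians of 0.00 and 0.03. The difference between the 2 lists was not tested, and the medians of the 10 include the 7 genes that came in through the 12-week libraries. The pan T cell sums were 54.5, 28.2, 25.5 and 39.0 CPM at 2 weeks and 60.6, 44.5, 34.2 and 15.6 CPM at 12 weeks in BSHlow mice, and 65.1, 76.1, 40.9 and 94.0 CPM against 36.0, 21, 78.0 and 35.2 CPM in BSHhigh mice. Cd4, the coreceptor of helper and regulatory T cells, rose in both strains, by 2.46 (SE 0.60, edgeR adjusted p = 0.00348) and 1.95 (SE 0.58, adjusted p = 0.0115). Cd2 rose in BSHlow mice, by 2.21 (SE 0.67, adjusted p = 0.0126), and none of the 15 was called lower there, with 9 of them negative. Cd3g, Cd3e, Cd3d and Zap70 fell in BSHhigh mice, Cd3e by 1.68 (SE 0.42, adjusted p = 0.00364).

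**Figure D3:**
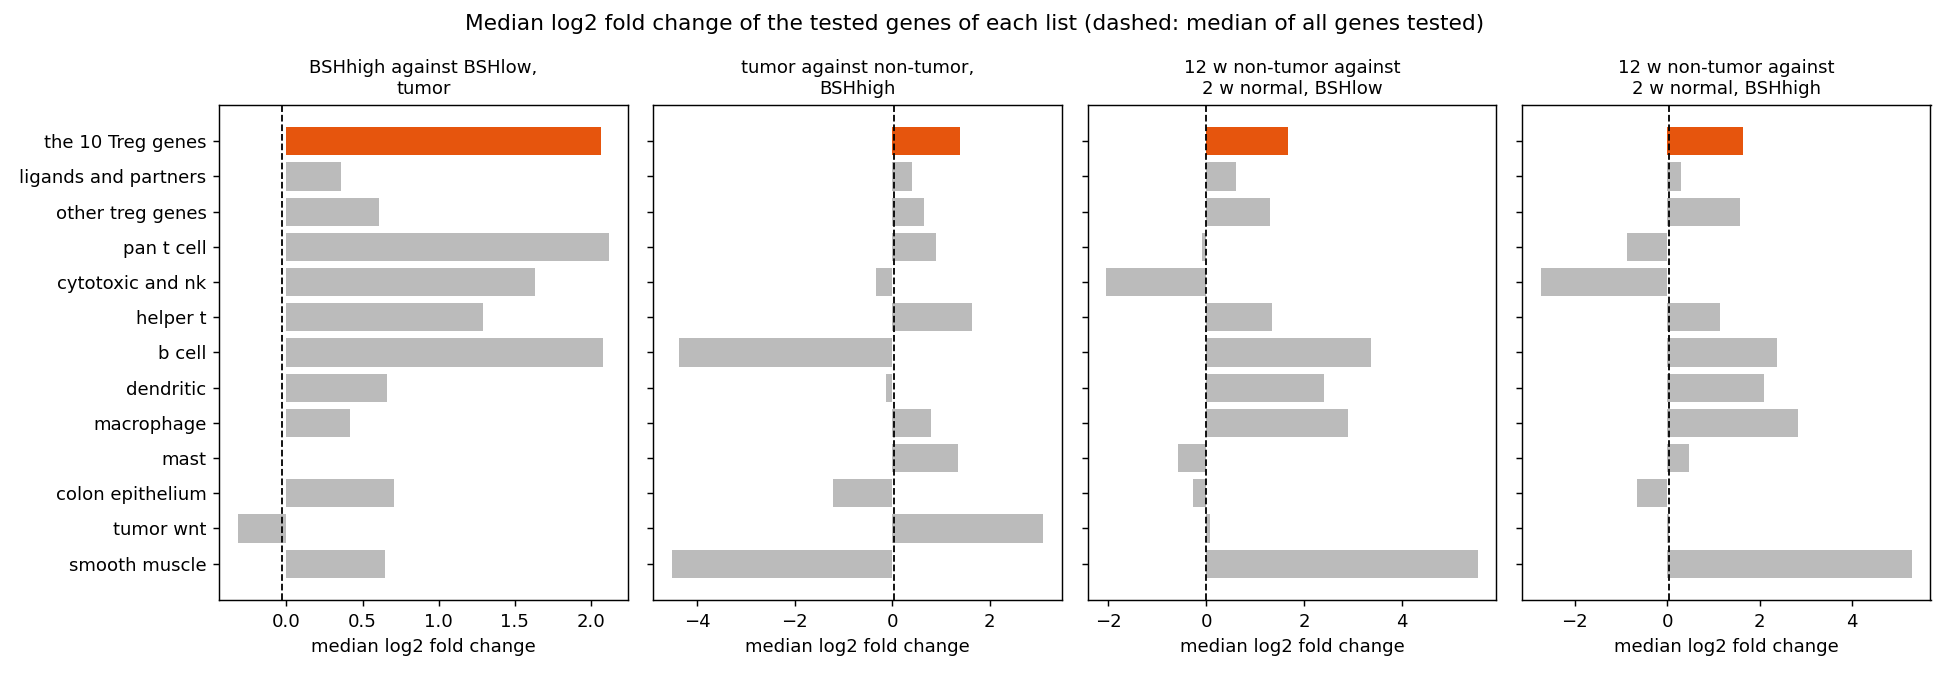
Median log2 fold change (horizontal axis) of the tested genes of each list (bars, the 10 genes in orange) in 4 comparisons (panels), with the median of all genes tested as a dashed line. In tumors the 10 genes (2.07) and the pan T cell genes (2.12) lie side by side. From 2 to 12 weeks in BSHlow mice the bars stand at 1.67 and -0.08. The first includes genes that passed the filter only through the 12-week libraries, so this gap is no support for a difference between the lists.

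In tumors the 10 genes and the pan T cell genes differed between the strains by similar amounts. The 10 genes had a median log2 fold change of 2.07 and the 15 pan T cell genes of 2.12, against -0.03 for all genes tested, with 14 of the 15 positive (Zap70 at -0.03) and 0 called by edgeR. Pan T cell sums were 50, 19.5, 40.2 and 41.4 CPM in BSHlow tumors and 96.1, 89.2 and 75.4 CPM in BSHhigh tumors, which did not overlap. Cytotoxic and natural killer genes, of which 4 of 10 could be tested and Ncr1 was at 0 counts in BSHlow tumors, summed to 7.02, 1.33, 2.19 and 4.40 CPM against 11.0, 11.7 and 8.78 CPM. Helper T cell genes (4 of 10 tested) summed to 11.3, 4.16, 6.68 and 6.70 CPM against 18.6, 24.2 and 18.1 CPM, with Il17a the most abundant per kb in BSHhigh tumors, at a mean of 6.81 CPM against 0.608 CPM in BSHlow tumors. B cell genes (3 of 8 tested) summed to 2.21, 0.462, 3.86 and 1.12 CPM against 16.2, 4.38 and 5.87 CPM. Dendritic cell genes had a median of 0.66, macrophage genes of 0.42, mast cell genes of -0.00, smooth muscle genes of 0.65 and the Wnt targets of -0.32, with 0 called. Sums of the 11 colon epithelium genes overlapped, at 3455, 5499, 5267 and 3161 CPM in BSHlow and 6539, 4375 and 4335 CPM in BSHhigh tumors. All 11 genes (most abundant per kb in these tumors Krt8, none at 0 counts) were positive, with a median of 0.71. Of them Aqp8, a water channel, and Slc26a3, a chloride and bicarbonate exchanger, were called higher in BSHhigh tumors, by 6.40 (SE 0.92, edgeR adjusted p = 0.0406) and 6.25 (SE 0.98, adjusted p = 0.0481). The part of these cell types in the results for the 10 genes was not tested beyond the ratio to CD3 counts that follows.

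Foxp3 was then taken per count of the CD3 genes Cd3d, Cd3e, Cd3g and Cd247, whose products form the signaling part of the T cell receptor. In BSHlow tumors there were 13.4, 17.4, 29.1 and 8.33 Foxp3 counts per 100 CD3 counts, and in BSHhigh tumors 8.75, 23.7 and 13.9. Non-tumor colon held 12.0, 12.0, 9.90 and 4.62 per 100 in BSHlow mice and 4.65, 4.48, 11.6 and 14.5 in BSHhigh mice. The strains overlapped in both tissues. On the log2 scale BSHhigh minus BSHlow was -0.19 in tumors (two-sided exact permutation test, p = 0.714, n = 3 and 4) and -0.21 in non-tumor colon (exact permutation p = 0.771, n = 4 and 4), where the smallest p the designs allow is 0.0286. At 2 weeks it was 0.26 (exact permutation p = 0.771), from 0 to 6 Foxp3 counts per library. The tumor value was 0.15 without BSHhigh tumor a and 0.09 without BSHlow tumor 3, and the non-tumor value 0.02 without BSHhigh library 1 and 0.01 without BSHhigh library 2. The 2-week value was -0.42 without BSHhigh library 3 and 1.14 without BSHhigh library 4, and -0.02 with a pseudocount of 1 in place of 0.5. Per Cd4 count alone the tumors held 15.7, 30.8, 29.5 and 6.90 Foxp3 counts per 100 in BSHlow mice and 24.6, 42.0 and 51.0 in BSHhigh mice, a log2 difference of 1.01 (exact permutation p = 0.171), so the sign in tumors depends on the T cell gene used.

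**Figure D4:**
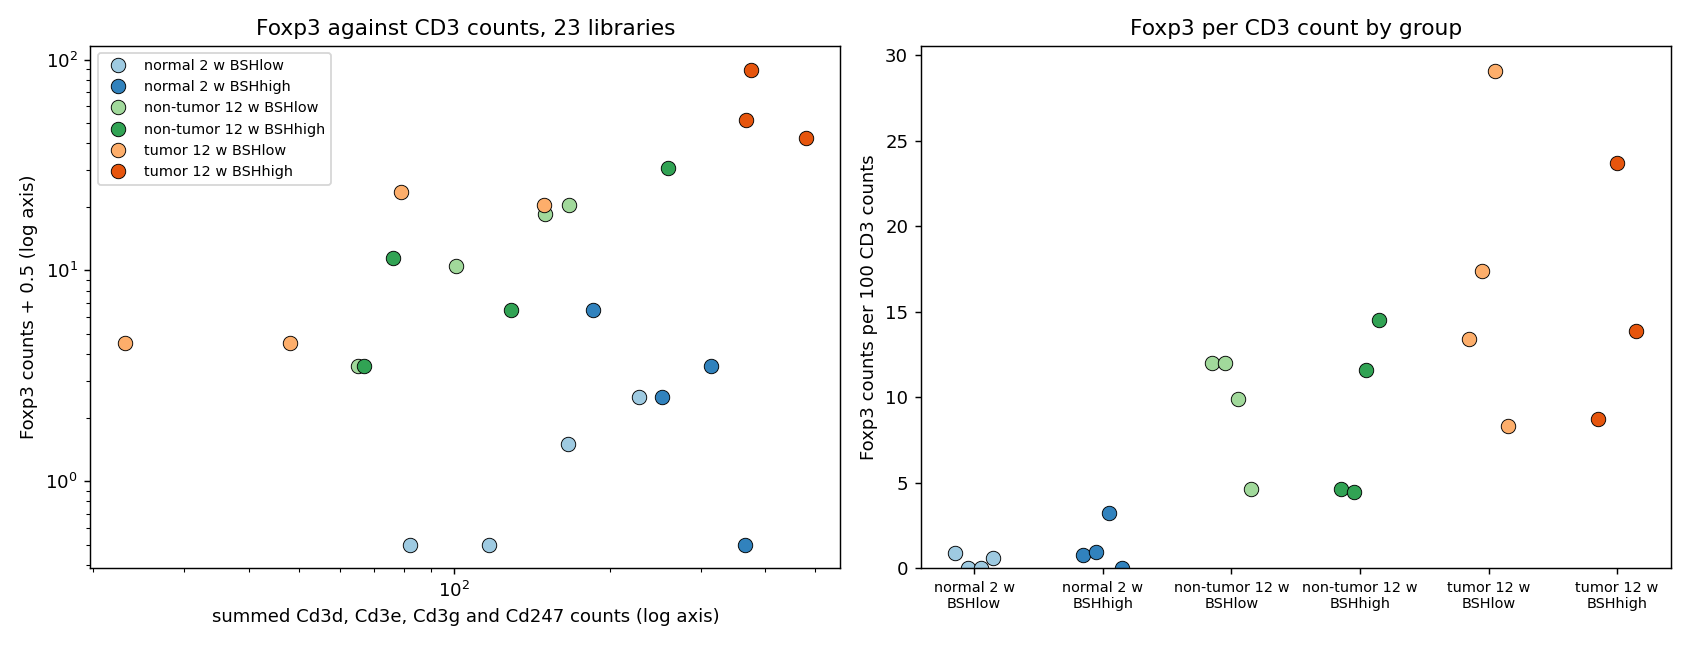
Left, Foxp3 counts plus 0.5 against summed CD3 counts of the 23 libraries, both on log axes; right, Foxp3 counts per 100 CD3 counts by group, 1 point per library. The 2-week libraries hold 82 to 366 CD3 counts with 0 to 6 Foxp3 counts, and in the right panel the 2 strains overlap within each tissue.

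Between 2 and 12 weeks the ratio of Foxp3 to CD3 counts did not overlap. The 2-week libraries held 0.877, 0, 0 and 0.602 Foxp3 counts per 100 CD3 counts in BSHlow mice and 0.794, 0.955, 3.23 and 0 in BSHhigh mice, all below every 12-week library. Pooled over libraries the ratio was 0.506 and 0.984 per 100 at 2 weeks, 10.6 and 9.42 in non-tumor colon and 17.1 and 14.9 in tumors, for BSHlow and BSHhigh mice. Per Cd4 count the times overlapped: 12.5, 0, 0 and 5.26 Foxp3 counts per 100 at 2 weeks against 12.9, 12.5, 11.1 and 11.5 in non-tumor colon of BSHlow mice, and 28.6, 6.52, 22.2 and 0 against 6.52, 8.11, 17.8 and 10.3 in BSHhigh mice. The contrast therefore depends on the T cell gene used. It was noticed after the values were seen and is a description without a test.

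Of 15 ligands and receptor partners of the 10 genes, 14 were tested in tumors, with a median log2 difference between the strains of 0.36 and 0 called, and Il2, at 4 and 3 counts in the BSHlow and BSHhigh tumors, was not. In BSHhigh mice Tnfsf18, the ligand of GITR, and Cd80, a ligand of Ctla4, rose in tumors against non-tumor colon, by 3.56 (SE 0.79, edgeR adjusted p = 0.00161) and 1.55 (SE 0.46, adjusted p = 0.0106), while Icosl and Il15ra fell. In BSHlow mice 3 of the 14 rose in tumors, Tnfsf4, Tnfsf18 and Cd80, and 4 fell, where 16.7% and 19.5% of all genes tested did (14.6% and 14.8% in BSHhigh mice). From 2 to 12 weeks 6 of 12 rose and 0 fell in BSHlow mice (17.0% and 8.06% of all genes). In BSHhigh mice 4 rose and 3 fell (16.8% and 7.56%). Among the 2-week libraries alone 10 genes of the list passed the filter, and the others came in through the 12-week libraries. Il2rg, the gamma chain shared by several cytokine receptors, rose by 1.75 (SE 0.49, adjusted p = 0.00844) and 1.24 (SE 0.48, adjusted p = 0.0423), and Cd86 by 1.77 (SE 0.45, adjusted p = 0.00414) and 1.75 (SE 0.44, adjusted p = 0.00383). Cd80 rose too, from 2 to 66 counts in BSHlow mice (adjusted p = 0.00106) and from 14 to 66 in BSHhigh mice (adjusted p = 0.0306). The most abundant of the list per kb was Nectin2, and Tnfsf18 was at 0 counts in both 2-week groups.

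Of 19 other genes linked to regulatory T cells, 15 were tested between the tumor groups, with 12 positive, a median of 0.61 and 0 called. Between 2 and 12 weeks 7 of 16 rose and 1 fell in BSHlow mice (17.0% and 8.06% of all genes). In BSHhigh mice 7 rose and 2 fell (16.8% and 7.56%). Among the 2-week libraries alone 9 genes of the list passed the filter. The others came in through the 12-week libraries, so these numbers are no support for a rise of the list. Gpr83, a receptor found in regulatory T cells, went from 0 and 1 counts over the BSHlow and BSHhigh 2-week groups to 267 and 252 counts in the non-tumor groups. It was nearly absent from tumors, at 2 and 10 counts. Nt5e, which encodes CD73, rose by 4.19 (SE 0.64, edgeR adjusted p = 8.2e-05) and 2.33 (SE 0.58, adjusted p = 0.00364), and Entpd1, which encodes CD39, by 2.84 (SE 0.45, adjusted p = 0.000117) and 3.09 (SE 0.46, adjusted p = 6.7e-05); together these enzymes turn extracellular ATP into adenosine. Maf, a transcription factor, fell in both strains. In tumors against non-tumor colon 4 of 16 rose and 3 fell in BSHlow mice (16.7% and 19.5% of all genes) and 3 rose and 3 fell in BSHhigh mice (14.6% and 14.8%), with Il1rl1, the receptor of interleukin-33, among those that rose in both. Il1rl1 had a mean of 350 CPM in BSHlow and 213 CPM in BSHhigh tumors, where Foxp3 had means of 0.620 and 2.86 CPM. Which cells carried Il1rl1 was not tested. Il10, which encodes an anti-inflammatory cytokine, was at 0 counts in BSHlow non-tumor colon and at no more than 12 counts in any group.

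The levels of other genes were compared with that of Foxp3. Among 14392 genes with a mean of at least 1 CPM, the 10 genes followed here left out, the highest Pearson correlations of log2 CPM over the 23 libraries were 0.87 for Hcls1 and Il2rg and 0.86 for Aif1, Fmnl1 and Sla. Of the other 9 genes followed here, Ctla4 and Icos were at 0.89, Tnfrsf4 at 0.86, Il2ra at 0.84, Il2rb at 0.56, Tnfrsf18 at 0.80, Tnfrsf8 at 0.79, Tigit at 0.73 and Ikzf2 at -0.48. Of the T cell genes Cd4 was at 0.85, Cd247 at 0.58, Cd3d at 0.24, Cd3e at 0.07 and Cd3g at 0.03. Once each group's mean was subtracted the highest of the 14392 were Irf4 and Pde4a at 0.85, Rasgrp3 at 0.78, Cd4 at 0.77 and Dennd4b at 0.76. On that scale Icos was at 0.77, Ctla4 at 0.70, Il2rb at 0.60, Tnfrsf4 at 0.59, Il2ra at 0.46, Tnfrsf8 at 0.44, Tigit at 0.43, Tnfrsf18 at 0.31 and Ikzf2 at 0.03, beside Cd247 at 0.64, Cd3e at 0.58, Cd3g at 0.53 and Cd3d at 0.51. The 23 libraries fall into 6 groups and Foxp3 counts were low, so the values are a description of these libraries.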

How the data were processed

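Bulk RNA from mouse colon was sequenced, and the values used are expected counts per gene that the authors deposited. Per the labels the authors used cutadapt, STAR, Picard and RSEM on the mm10 build, with no versions given. The labels name a total RNA kit and the methods an mRNA kit, both stranded. Of the table, 1 blank line and 1 line with text in a cell were left out, which leaves 55449 genes, and 4.24% of values were not whole and were rounded. The header repeats BSHlow tumor names over columns 14 to 16, which are read here as the 3 BSHhigh tumors because a table published with the study lists the same values under that heading.

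Fits used edgeR 4.0.16 in R 4.3.3 (TMM scaling, filterByExpr with a minimum count of 10, quasi-likelihood F test, prior count 2), with limma 3.58.1 (voom) and DESeq2 1.42.0 as alternatives. Strains were compared in a fit of the 2 groups of a tissue, tumor and non-tumor colon in a fit of the 15 libraries of 12 weeks, and 12 and 2 weeks in a fit of 16 libraries. A gene is called at a Benjamini-Hochberg adjusted p under 0.05 over all genes tested and a log2 fold change beyond 1 in size. SE is the log2 fold change divided by the square root of F. The tests were tested on simulated data. The 10 genes were selected by symbol. The other named genes are lists of ligands and partners, other regulatory T cell genes, pan T, cytotoxic, helper T, B, dendritic, macrophage and mast cells, colon epithelium, Wnt targets, smooth muscle and the Foxp3 locus, or stood highest in likeness to Foxp3. Members and lists were chosen with earlier results of these data known. Replicates of a group differed by a chi-square per degree of freedom of 16.6 to 126 over 33 pairs, and none was counted as 1 sample. Whether libraries with the same number in 2 groups were alike was checked by correlation after subtracting group means: it ran from -0.173 to 0.26 and was not over 0.1 for every number in any pair of groups, so fits are unpaired. A result for 1 gene of the lists is not reported here.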

Additional observations from a re-analysis of the deposited data

Results flagged for a closer look

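The levels of the 10 genes and the Foxp3 to CD3 ratio in the 5 groups of 4 libraries, 55 sets of values, were each checked for 1 library far from the other 3. The check found 1, where about 1 in 20 would be found by chance. Tnfrsf4 in BSHlow tumors stood at 1.28 CPM in library 1, against 0.489 to 0.620 CPM in the other 3. The cause was not tested.

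Ikzf2 was the single gene of the 10 whose ranges did not overlap between the strains in 2 tissues with opposite signs. The log2 ratio of its mean CPM, BSHhigh over BSHlow, was 0.79 in tumors and -0.90 at 2 weeks. The difference between these was not tested.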

How the results depend on the processing

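Calls of the 10 genes depended on the settings. Between the strains in tumors 0 were called, 8 with DESeq2, 3 without a filter on low counts, 3 with 15 libraries in one fit and 0 to 1 when each library was left out. The tumor minus non-tumor difference had 0, and 2 with DESeq2. Tumor against non-tumor colon had 1 in BSHlow mice (1 to 2 leaving out a library) and 7 in BSHhigh mice (3 to 6, and 2 of 4 tested with at least 10 counts in every library). From 2 to 12 weeks 7 were called in BSHlow mice (4 to 8 leaving out a library, 2 of 3 tested with at least 10 counts in every library, 4 of 6 tested with replicate number as a block) and 4 in BSHhigh mice (3 to 6, 0 of 3 and 2 of 5 in the same order). The block fits hold the 2 groups alone and filter on them, so they differ from the fit of 16 libraries in more than the block.

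Log2 fold changes near 0 changed sign. Between the strains in non-tumor colon, leaving out each library in turn, Foxp3 ran from -0.90 to 0.33, Il2ra from -0.82 to 0.07, Il2rb from -0.28 to 0.38 (limma-voom -0.05, block -0.03), Ctla4 from -0.30 to 0.59 (limma-voom -0.18) and Tigit from -0.35 to 0.69 (limma-voom 0.23, block 0.11). Icos in tumor against non-tumor colon of BSHlow mice ran from -0.24 to 0.61. From 2 to 12 weeks in BSHhigh mice Ikzf2 ran from -0.22 to 0.11 (limma-voom 0.06, at least 10 counts 0.04, block 0.04) and Il2rb from -0.41 to 0.25 (at least 10 counts 0.02). The log2 ratio of Foxp3 to CD3 counts between the strains ran from -0.56 to 0.15 in tumors (1.01 with Cd4 alone), from -0.50 to 0.02 in non-tumor colon and from -0.42 to 1.14 at 2 weeks (-0.02 with a pseudocount of 1). The cause was not tested.

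Groups held 3 or 4 libraries, and the identity of the 3 BSHhigh tumor libraries rests on a published table, not on the header. Foxp3 had 3 to 182 counts per group. Bulk RNA does not separate cell number from expression per cell, and no protein or cell count was analysed here. The strand setting of the counting was not given, and Foxp3, Ikzf2 and Tnfrsf18 share exon bases with other genes.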
